A study of Mus musculus with 44 samples.

Results

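Gene expression in male mouse germ cells 8 and 10 days after birth (days post partum, dpp) was compared with that in male germ cells of embryonic days 17.5 and 18.5 (E17.5 and E18.5). The comparison took 8 of the 44 arrays of the study, 4 on each side, and these were chosen by age and sex alone. The study followed cells labelled as primordial germ cells through fetal life and, in males, to 20 dpp, and each RNA sample was read on a MouseRef-8 v2 beadchip, a glass chip whose beads carry one probe sequence each. There were 2 arrays at each of E17.5, E18.5, 8 dpp and 10 dpp. The labels name no genotype, strain, treatment or reporter for the 8 samples, which were all male cells isolated by FACS. The labels call the cells primordial germ cells at every age and give no marker for the sort. No animals are named, and the duplicates may be biological or technical. The p-values therefore rest on array-to-array spread that may be technical, and the number of arrays limits the precision.

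At E17.5 and E18.5 the male germ cells of the mouse are known as prospermatogonia. They rest outside the cell cycle, rebuild the DNA methylation that was erased earlier, and use piRNAs, small RNAs that guide PIWI proteins, to find and silence transposons. After birth they move to the edge of the testis cord, divide again and form spermatogonia. Some of these self-renew as undifferentiated stem and progenitor cells, and others respond to retinoic acid, differentiate and go on to meiosis. In the first wave of spermatogenesis, the ages of 8 and 10 dpp precede or coincide with the first meiotic entry.

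Expression values are log2 normalized intensities. A gene was called, and is described as having risen or fallen, when the limma test gave an adjusted p under 0.05 and a difference of at least 2-fold. Log2 differences are followed by ± their standard error and are juvenile minus fetal unless stated. Levels belong to 1 probe each and are not compared between genes. Where a gene was detected on none of the 4 arrays of a side, the fold is a bound and is written "at least".

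The juvenile arrays were brighter before normalization. The upper quartile of probe intensity lay between 454.73 and 581.06 on the juvenile arrays and between 115.56 and 125.15 on the fetal arrays. Between 42.1% and 44.8% of probes were detected on the juvenile arrays and between 46.09% and 49.32% on the fetal ones. Brightness and stage cannot be told apart in this design. Scaling each array to its median in place of equalizing the distributions moved the median difference of all genes from 0.02 to 1.10 log2, and 86.2% of calls were then rises, against 49.7%.

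Between the fetal and the juvenile stage, 4053 of 10935 genes changed, of which 2014 rose and 2039 fell. In percent of all genes, 37.1% were called, 18.4% as rises and 18.6% as falls. The 4 juvenile arrays did not overlap the 4 fetal arrays for 3982 of the called genes, against 60.5% of all genes tested. Of the called genes, 2955 differed at least 2-fold in the same direction in all 4 pairings of a juvenile with a fetal day. For 218 of the rises the gene was not detected on any fetal array, and for 736 of the falls it was not detected on any juvenile array. The plot of all tested genes shows both groups on either side of the line of equal level.

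**Figure D1:**
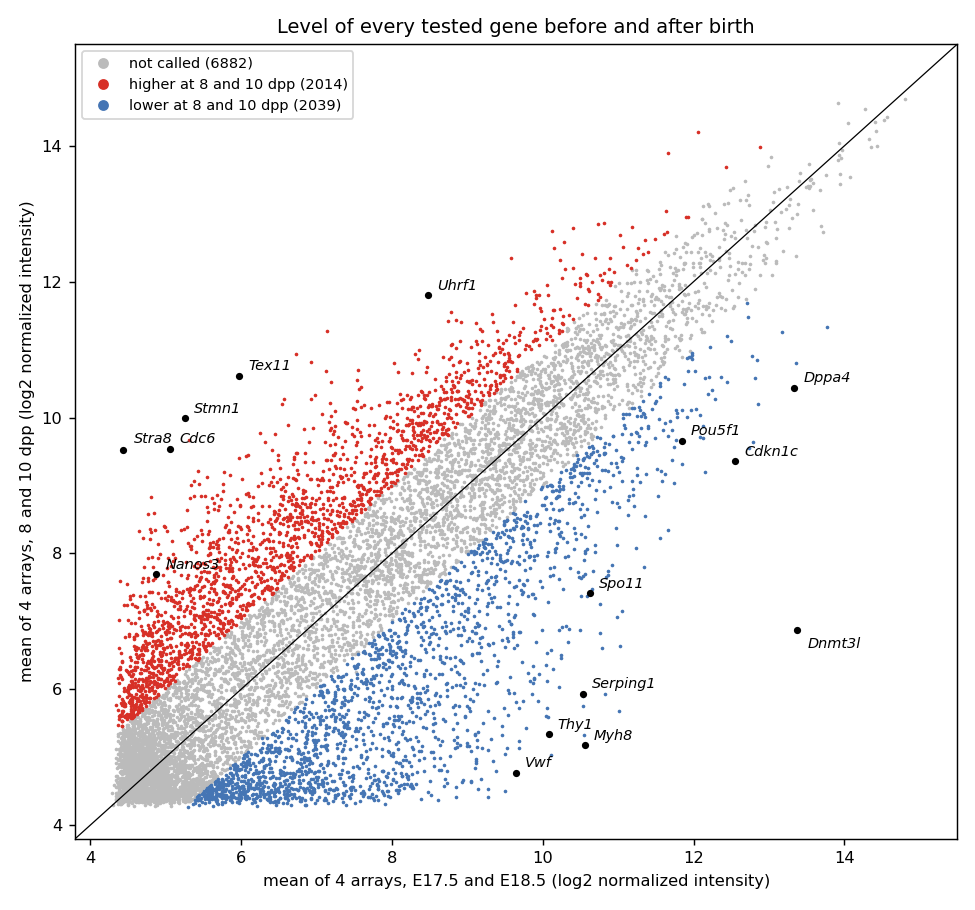
Each point is 1 of the 10935 tested genes, with the mean of the 4 arrays at E17.5 and E18.5 on the horizontal axis and the mean of the 4 arrays at 8 and 10 dpp on the vertical axis, both as log2 normalized intensity. Red points mark the 2014 genes that rose, blue points the 2039 that fell and grey points genes not called. Stra8, Stmn1, Tex11 and Cdc6 lie far above the diagonal and Dnmt3l, Myh8, Thy1 and Vwf far below it.

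The largest rise was that of Stra8, the retinoic acid target that licenses meiosis and also marks differentiating spermatogonia. Stra8 read 4.35 and 4.59 at E17.5, 4.39 and 4.39 at E18.5, 9.04 and 9.79 at 8 dpp, and 9.25 and 10.02 at 10 dpp. It was not detected on any fetal array and was detected on all 4 juvenile arrays, so that it rose at least 23.2-fold (5.10 ± 0.20, adjusted p = 1.46e-16). Stmn1, a protein that destabilizes microtubules, came next (4.74 ± 0.17), followed by Tex11, an X-linked meiotic recombination gene (4.64 ± 0.18), and Cdc6, which loads the replicative helicase (4.48 ± 0.18). Mogs, which trims N-glycans (4.36 ± 0.21), Cirbp, a cold-inducible RNA-binding protein (4.20 ± 0.18), and Ptma, the histone chaperone prothymosin alpha (4.12 ± 0.19), had the next largest rises. The 15 largest also held the exchange factor gene Plekhg2 (3.88 ± 0.17), the replication fork repair gene Tonsl (3.70 ± 0.22) and the abscission gene Cep55, which rose at least 10.1-fold.

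The largest fall was that of Dnmt3l, a catalytically inactive partner of the de novo DNA methyltransferases. Dnmt3l read 13.47 and 13.45 at E17.5, 13.34 and 13.21 at E18.5, 6.69 and 6.60 at 8 dpp, and 7.44 and 6.75 at 10 dpp, and it fell by 6.50 ± 0.30 (adjusted p = 2.18e-15), a 90.4-fold difference. The groups were far apart, and a further probe of the gene gave -6.64. Next came genes with known roles outside the germline, among them Myh8, a myosin heavy chain (-5.38 ± 0.21), Tekt1, a tektin of cilia and flagella (-5.33 ± 0.26), Slc39a4, a zinc importer (-5.23 ± 0.20), and Itga11, a collagen-binding integrin (-5.08 ± 0.23, with -3.30 and -0.25 on dimmer probes). Vwf, the von Willebrand factor of endothelium, fell at least 21-fold, the photoreceptor cadherin gene Cdhr1 at least 19-fold, the actin regulator gene Avil at least 16.3-fold, the axoneme gene Spag6l at least 16.2-fold and the keratin gene Krt18 at least 14.9-fold. Thy1, a surface protein used to enrich germline stem cells in juvenile and adult mice, went from between 9.84 and 10.23 on the fetal arrays to between 5.13 and 5.51 on the juvenile arrays (-4.74 ± 0.24). Serping1, an inhibitor of complement, fell by 4.59 ± 0.16.

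Markers of spermatogonia were examined as 2 lists. Of 15 measured genes of differentiating spermatogonia, 5 rose (33.3%) and 1 fell (6.67%), against 18.4% and 18.6% of all genes. The list's median difference was 0.82, against 0.02 over all genes. Sohlh2, a transcription factor needed for differentiation, read 4.56, 4.66, 4.86 and 4.95 on the fetal arrays and 6.71, 7.41, 7.08 and 7.25 on the juvenile arrays (2.35 ± 0.39, adjusted p = 8.65e-06). Dnmt3b, a de novo methyltransferase switched on at differentiation, read 10.22 and 10.39 at E17.5, 10.10 and 9.87 at E18.5, 12.48 and 12.52 at 8 dpp, and 12.53 and 12.48 at 10 dpp (2.35 ± 0.11). Both were higher on every juvenile array than on any fetal one. Crabp1, a retinoic acid-binding protein, rose by 2.52 ± 0.37, and Dmrt1, which holds spermatogonia in mitosis, rose at least 2.24-fold from below detection.

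Sohlh1, the partner of Sohlh2, was not called. It read 12.90, 12.74, 12.96 and 12.68 on the fetal arrays and 12.66, 12.86, 12.95 and 12.87 on the juvenile arrays (0.01 ± 0.16, adjusted p = 0.952), and the sign of so small a difference turned with cyclic loess scaling and with several arrays left out. Across the other male ages of the study, the mean level of Sohlh1 was 4.60 at E12.5, 8.56 at E13.5 and 12.06 at E14.5, and it then stayed between 12.59 and 13.05 to 20 dpp. Sohlh2, in contrast, was at 6.99 at E12.5, between 4.44 and 4.90 from E15.5 to E18.5, and between 6.71 and 7.16 from 8 to 20 dpp. Stra8 was between 4.35 and 4.55 at every fetal male age and between 9.26 and 9.70 at every juvenile age.

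Of 28 measured genes of undifferentiated spermatogonia, 6 rose (21.4%) and 4 fell (14.3%), shares near those of all genes, 18.4% and 18.6%. The median difference was 0.43, or 0.27 with genes undetected on a side set to their bound, and median scaling gave 18 rises and 3 falls. Neurog3, a transcription factor of progenitors, read 4.72 and 5.05 at E17.5, 6.38 and 5.95 at E18.5, 8.30 and 8.98 at 8 dpp, and 9.18 and 8.95 at 10 dpp (3.33 ± 0.26, adjusted p = 2.91e-11). Nanos3, which protects germ cells from apoptosis, read 5.43, 4.84, 4.42 and 4.80 on the fetal arrays and 7.46, 7.43, 8.28 and 7.63 on the juvenile arrays (2.82 ± 0.21). For both genes every juvenile array lay above every fetal array, and E18.5 lay above E17.5 for Neurog3 alone. Pou3f1, a POU domain factor that responds to GDNF, rose by 2.86 ± 0.37 and Id4, a marker of stem cells, by 1.83 ± 0.22. Nanos2, an RNA-binding protein that keeps stem cells undifferentiated, read 5.07, 4.78, 5.25 and 4.64 before birth and 6.73, 7.21, 6.30 and 6.60 after it (1.77 ± 0.35). It had been at 11.47 at E13.5 and 11.24 at E14.5, so that its juvenile level was below that of the mid-fetal testis. Nanos3 and Id4 were likewise high at E13.5 (9.69 and 7.47) and low by E16.5 (4.70 and 4.87).

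The falls in this list were those of Thy1, the pluripotency-associated chromatin gene Utf1, Tspan8 and Bmi1. Utf1 read 10.72 and 10.38 at E17.5, 9.11 and 8.91 at E18.5, and between 5.09 and 5.58 on the juvenile arrays, so that it stepped down between the fetal days as well as after birth (-4.34 ± 0.18). Tspan8, a tetraspanin on stem cell subsets, fell by 3.24 ± 0.16. For the GDNF receptor, which conveys the main self-renewal signal, the kinase subunit Ret rose by 1.33 ± 0.27, a difference that was 0.73 and not called against E18.5 alone. The co-receptor Gfra1 was detected on 0 of 4 fetal and on 2 of 4 juvenile arrays and was not called (0.73 ± 0.14), and neither was Etv5, a transcription factor downstream of it (0.52 ± 0.24, adjusted p = 0.0597).

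**Figure D2:**
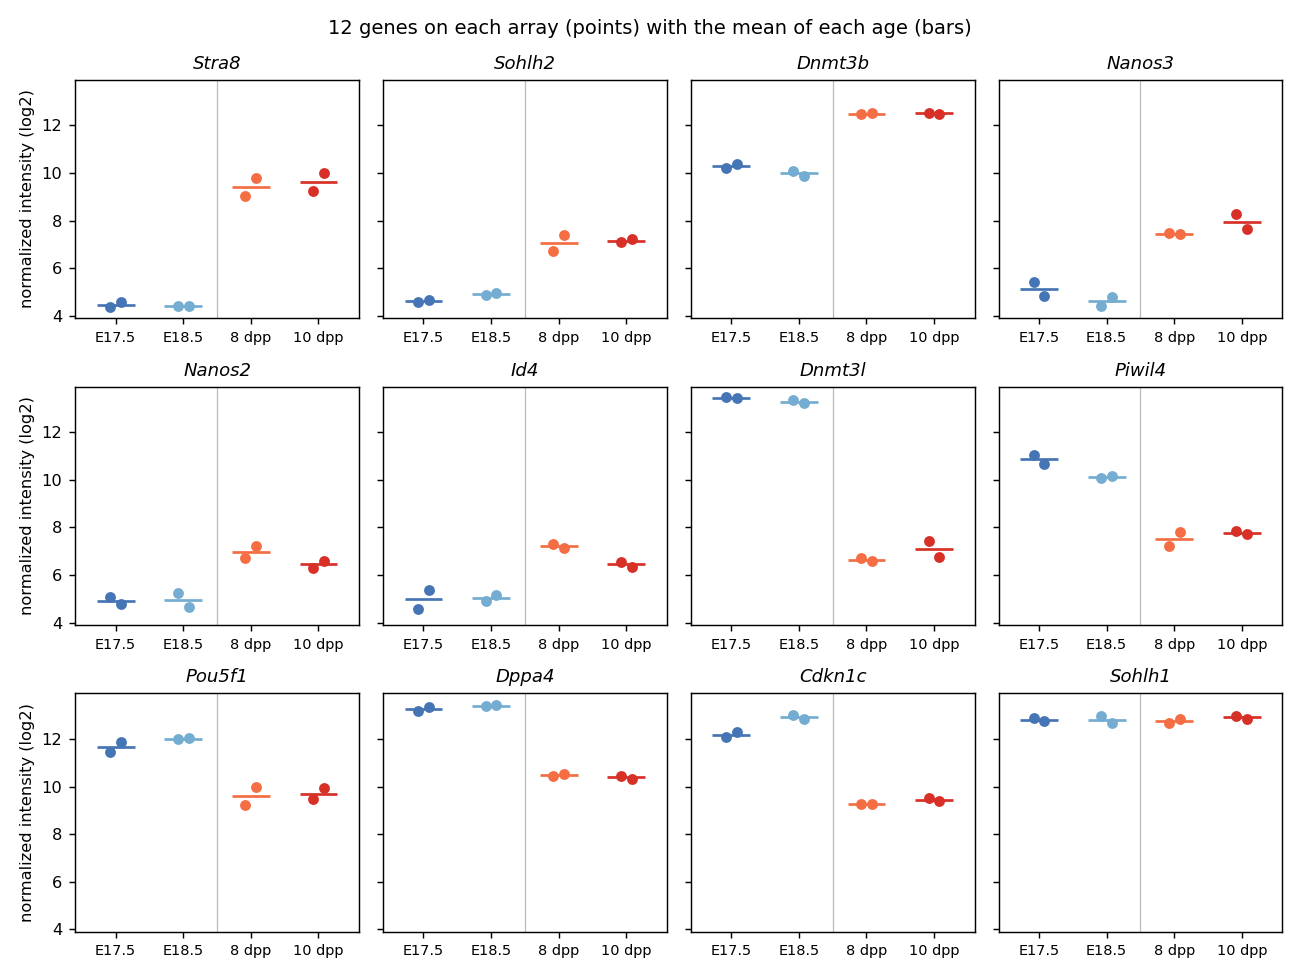
Each panel gives the log2 normalized intensity of 1 gene on the 8 arrays, 2 points for each of E17.5, E18.5, 8 dpp and 10 dpp, with a bar at the mean of the age and a line between the stages. Stra8, Sohlh2, Dnmt3b, Nanos3, Nanos2 and Id4 were higher on all 4 juvenile arrays, Dnmt3l, Piwil4, Pou5f1, Dppa4 and Cdkn1c were lower on all 4, and Sohlh1 overlapped.

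Of 12 measured genes of fetal prospermatogonia, 3 fell (25%) and 1 rose (8.33%), with falls not far from the 18.6% of all genes, of which 18.4% rose. The median was -0.32. Under median scaling it was 0.67, against 1.10 over all genes. Besides Dnmt3l, Piwil4 fell. Piwil4, the nuclear PIWI protein that directs methylation to transposons, read 11.06 and 10.66 at E17.5, 10.06 and 10.16 at E18.5, and 7.24, 7.79, 7.87 and 7.70 after birth (-2.84 ± 0.30, adjusted p = 6.16e-09). Under median scaling the difference of Piwil4 was -0.80, under the fold threshold. Both genes had climbed in mid-fetal life, Dnmt3l from 4.75 at E12.5 to 13.57 at E15.5 and Piwil4 from 5.69 to 11.72 over the same days. Of 17 genes of the piRNA pathway, 5 fell (29.4%, against 18.6% of all genes) and 0 rose. The median was -0.75, or -0.47 with bounds. Under median scaling it was 1.23, against 1.10 over all genes. Tdrd6, a Tudor scaffold of the pathway, fell at least 8.6-fold, and Mael, which acts in piRNA production, at least 1.2-fold. Piwil1, the PIWI protein of meiotic and later cells, fell by 1.81 ± 0.20 but was 0.19 higher under median scaling. Piwil2, the cytoplasmic partner of Piwil4, read between 12.16 and 12.77 before birth and between 11.57 and 11.77 after it, a difference under 2-fold (-0.89 ± 0.10) that also turned under median scaling (0.86). Ddx4, the germ cell helicase also known as VASA, gave -2.48 ± 0.29 on its brightest probe but -0.07 and 1.26 on others. No single direction can therefore be given for it, although its brightest probe puts it among the 5 falls.

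The machinery of DNA methylation shifted in opposite ways. Of 9 measured genes, 4 rose (44.4%) and 1, Dnmt3l, fell (11.1%), against 18.4% and 18.6% of all genes. Uhrf1, which brings the maintenance methyltransferase to replicating DNA, read 7.82 and 8.35 at E17.5, 8.81 and 8.95 at E18.5, 11.73 and 11.82 at 8 dpp, and 11.73 and 11.92 at 10 dpp (3.32 ± 0.13, adjusted p = 2.4e-16), with 0.48 on a dim probe. Dnmt1, the maintenance enzyme itself, rose by 1.65 ± 0.13, Dnmt3b by 2.35 ± 0.11 and Tdg, a glycosylase of active demethylation, by 1.46 ± 0.24. Dnmt3b and Dnmt3l, which are partners in de novo methylation, thus moved apart: Dnmt3b went from 8.90 at E12.5 to 10.63 at E16.5 and was between 12.23 and 12.56 at all juvenile ages, whereas Dnmt3l was between 6.33 and 7.09 there.

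Of 18 measured genes of pluripotency 7 fell (38.9%, against 18.6% of all genes) and 0 rose. The median was -0.68, or -0.37 with bounds. Under median scaling it became 0.15, against 1.10 over all genes. Pou5f1, the core factor also known as Oct4, read 11.47, 11.87, 11.99 and 12.05 before birth and 9.24, 9.99, 9.48 and 9.94 after it (-2.18 ± 0.19, adjusted p = 2.37e-10), but only -0.26 under median scaling, where it was not called. Dppa4, a chromatin protein of pluripotent cells, lay between 13.19 and 13.43 before birth and between 10.34 and 10.53 after it (-2.90 ± 0.09), and it kept a fall of 1.24 under median scaling. Neither gene's groups overlapped. Utf1 had the largest fall of the list, and L1td1 fell at least 2.88-fold. Dppa5a (-1.58 ± 0.13) and the germ cell factor Tfap2c (-1.37 ± 0.32, with 0.12 and -1.41 on other probes) turned to 0.51 and 0.64 under median scaling. Among the 10 general germ cell markers, 1 rose (10%) and 4 fell (40%), with Ddx4 counted by its brightest probe. Dazl, an RNA-binding protein of germ cells, differed by 0.91 ± 0.14, under the fold threshold. On each side 9 of these 10 markers were detected on all 4 arrays, but they were not the same 9. Nanos3 was not detected on every fetal array, and Mael alone was detected on no juvenile array. The summed normalized intensity of the 10 markers ran from 21650 to 27389 on the fetal and from 13110 to 15431 on the juvenile arrays. Their median difference of -0.53 was 1.34 under median scaling, against 1.10 over all genes.

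Genes of cell division rose together. Of 40 measured genes of DNA replication, 26 rose (65%, against 18.4% of all genes) and 0 fell, with a median difference of 1.30. Of 39 genes of mitosis, 24 rose (61.5%) and 1 fell (2.56%, against 18.6% of all genes), with a median of 1.53. The fall was that of Cdc25b, a phosphatase that activates Cdk1, at least 2.76-fold. Cyclic loess scaling gave 20 rises and 2 falls for replication and 21 and 2 for mitosis, and median scaling gave 39 and 0 and 32 and 2. Cdc6 read 4.85 and 5.23 at E17.5, 4.73 and 5.43 at E18.5, 9.66 and 9.57 at 8 dpp, and 9.41 and 9.53 at 10 dpp. Mcm2, a subunit of the replicative helicase, read 8.75, 8.90, 8.82 and 8.67 before birth and 11.13, 10.97, 11.11 and 11.10 after it (2.29 ± 0.10, adjusted p = 8.58e-16). Both were higher on all juvenile arrays. Further rises were those of Tyms, which makes thymidylate (2.67 ± 0.15, with 3.15, 0.24 and 0.41 on dimmer probes), the sliding clamp gene Pcna (2.46 ± 0.28), the helicase component gene Gins3 (2.44 ± 0.43) and the chromatin assembly gene Chaf1b (2.38 ± 0.14).

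Among mitotic genes, Cdca5, also known as sororin, which holds sister chromatids together, read 5.0 and 5.56 at E17.5, 6.11 and 5.50 at E18.5, and between 9.09 and 9.19 on the juvenile arrays (3.58 ± 0.21, adjusted p = 1.37e-13). Plk1, a kinase that drives mitotic entry, read 5.65 and 6.32 at E17.5, 6.59 and 6.42 at E18.5, and 9.91, 9.89, 9.90 and 9.41 after birth (3.53 ± 0.17). Cdk1, the central mitotic kinase, read 6.37, 6.36, 7.19 and 7.02 before birth and 9.17, 8.72, 8.75 and 8.58 after it (2.07 ± 0.14). All 3 were higher on every juvenile array. The spindle assembly gene Tpx2 rose at least 9.36-fold, and the survivin gene Birc5 (2.73 ± 0.13), the chromokinesin gene Kif4 (2.43 ± 0.11) and the kinetochore gene Spc25 (2.39 ± 0.16) rose as well. Of 39 measured histone genes of the kind made in S phase, 24 rose (61.5%, against 18.4% of all genes) and 0 fell. The median was 1.49, or 1.16 with bounds, and H2ac21 (3.81 ± 0.25) and H3c6 (3.10 ± 0.19) led the list. These genes are near-identical copies, and which of them a probe read is uncertain.

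Mitotic and replication genes share known promoter elements. The hexamer TTTGAA, the core of the cell cycle genes homology region (CHR), is known for holding down late cell cycle genes in resting cells, and TTTNGCGC is the site read by E2F factors. Each was searched on both strands of the 300 bases that run from 250 before to 50 after the transcription start. The CHR hexamer stood in 25 of the 33 mitosis genes with a promoter in the reference (75.8%). Its share was 14.5% of the 8874 tested genes with a promoter and 20.2% of all 27025 genes of the reference. Among the mitosis genes that rose and had a promoter it stood in 15 of 19 (78.9%). In replication genes its share was 20.6%, while the E2F site stood in 6 of 34 of them (17.6%), against 2.67% of the tested genes. CCAAT, the NFY box, was in the promoters of 69.7% of mitosis genes, 63.2% of those that rose and 43.5% of tested genes. A match is a run of letters and was not tested for binding.

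The promoters of 2 mitosis genes with the hexamer and of 2 replication genes with the E2F site are printed to show where the elements lie. They are RefSeq sequences of GRCm38.p6, plus strand, in lower case with the matched letters in capitals. Cdca5 is at chr19:6084847-6085146, Plk1 at chr7:122159185-122159484, Cdt1, a licensing factor that rose by 1.54, at chr8:122567765-122568064, and the helicase gene Mcm5, which rose by 1.53, at chr8:75109259-75109558. The Cdca5 promoter holds the hexamer 2 times in a row, Plk1 holds 1 copy downstream of the start, and Mcm5 holds 2 overlapping E2F matches, 1 on each strand.
Cdca5 promoter: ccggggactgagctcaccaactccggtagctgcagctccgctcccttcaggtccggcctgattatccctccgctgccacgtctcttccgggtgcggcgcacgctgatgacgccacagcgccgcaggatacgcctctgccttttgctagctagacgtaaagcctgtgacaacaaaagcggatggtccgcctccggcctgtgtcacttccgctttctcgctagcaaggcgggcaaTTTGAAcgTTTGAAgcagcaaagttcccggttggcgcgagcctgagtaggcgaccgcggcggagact
Plk1 promoter: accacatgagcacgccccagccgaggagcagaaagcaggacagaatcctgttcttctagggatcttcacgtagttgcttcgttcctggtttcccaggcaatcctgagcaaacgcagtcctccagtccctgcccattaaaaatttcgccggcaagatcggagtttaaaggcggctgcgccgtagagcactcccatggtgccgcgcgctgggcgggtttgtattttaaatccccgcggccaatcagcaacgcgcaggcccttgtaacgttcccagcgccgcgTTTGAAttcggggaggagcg
Cdt1 promoter: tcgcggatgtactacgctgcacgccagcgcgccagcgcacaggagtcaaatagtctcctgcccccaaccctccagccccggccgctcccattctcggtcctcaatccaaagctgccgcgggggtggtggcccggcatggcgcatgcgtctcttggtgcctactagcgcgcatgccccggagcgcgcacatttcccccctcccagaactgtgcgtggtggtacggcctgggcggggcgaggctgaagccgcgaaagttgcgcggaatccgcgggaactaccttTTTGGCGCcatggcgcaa
Mcm5 promoter: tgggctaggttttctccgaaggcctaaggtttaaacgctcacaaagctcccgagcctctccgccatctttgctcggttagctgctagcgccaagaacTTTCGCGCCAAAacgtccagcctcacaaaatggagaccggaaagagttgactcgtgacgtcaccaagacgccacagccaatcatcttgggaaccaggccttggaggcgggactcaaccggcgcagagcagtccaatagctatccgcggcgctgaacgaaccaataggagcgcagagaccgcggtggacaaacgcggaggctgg

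The cell cycle genes had been higher earlier in fetal life. Averaged over the list, replication genes stood at 9.86 at E12.5, fell to 8.36 at E16.5 and 8.26 at E18.5, and were at 9.66 at 8 dpp and 9.61 at 10 dpp. Mitosis genes went from 9.12 at E12.5 to 7.36 at E18.5 and 8.76 at 8 dpp. Cdk1 itself was at 10.10 at E12.5, 6.37 at E17.5 and 8.94 at 8 dpp, so the juvenile level lay between the extremes of fetal life. From 8 to 20 dpp the replication list stayed between 9.53 and 9.73.

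**Figure D3:**
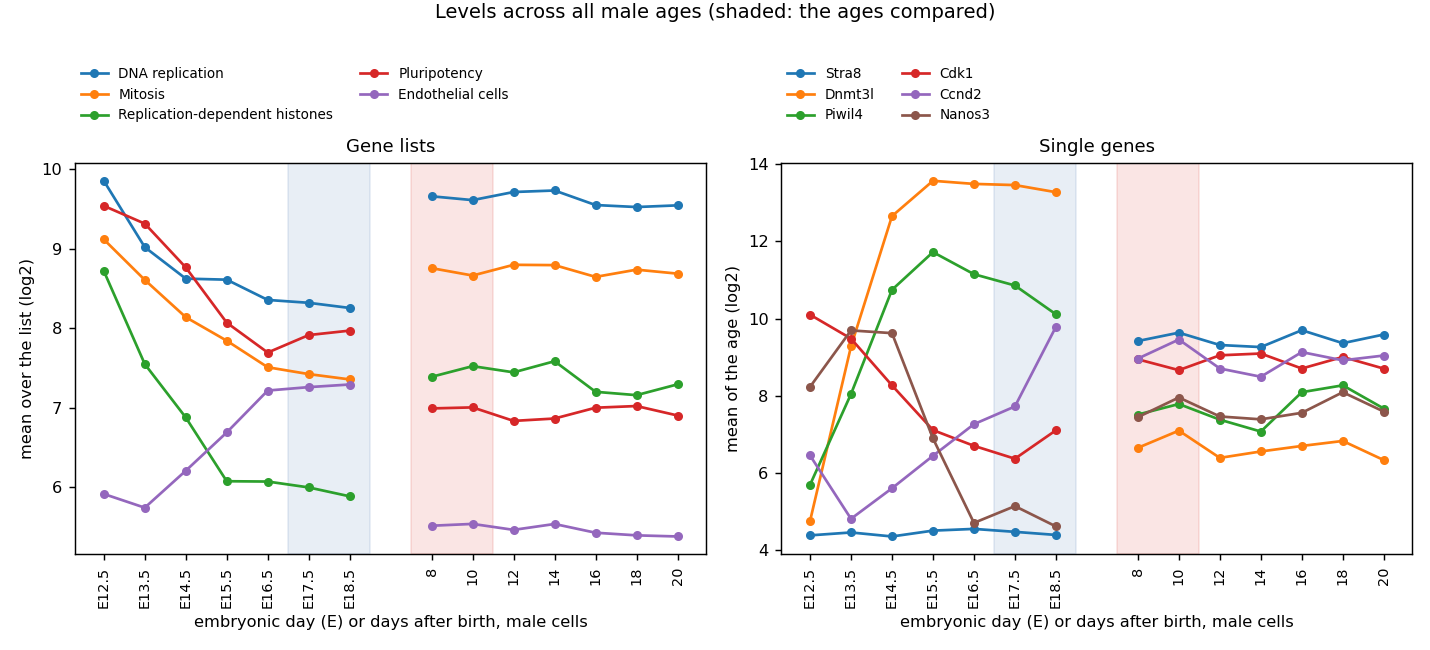
The left panel gives the mean log2 level of 5 gene lists and the right panel the mean level of 6 genes at all 14 male ages, from E12.5 to E18.5 and from 8 to 20 dpp, with the compared fetal ages shaded blue and the compared juvenile ages shaded red. Replication, mitosis and histone lists were low at E16.5 to E18.5 and higher at both ends, the endothelial list was high only in late fetal life, and Stra8 was high only after birth.

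Regulators of the start of the cycle gave a mixed picture. Cdkn1c, the imprinted CDK inhibitor p57, read 12.07 and 12.29 at E17.5, 13.02 and 12.83 at E18.5, and 9.27, 9.25, 9.53 and 9.38 after birth (-3.20 ± 0.20, adjusted p = 4.35e-13). Cdkn1b, the inhibitor p27 that is known to hold fetal male germ cells in arrest, was detected on all fetal and no juvenile arrays and fell at least 1.69-fold, with a fitted difference of -1.29 that was -0.94 and under the fold threshold with median scaling. Cdkn2a, which encodes p16 and p19, gave -1.07 ± 0.13 on one probe and -0.12 on another, and turned to 1.06 under median scaling. Cdkn2b was not called (0.69 ± 0.30). In all, 3 of 9 inhibitors and Rb family genes fell (33.3%) and 1 rose (11.1%), the Rb relative Rbl1 (1.76 ± 0.34). The shares of all genes were 18.6% and 18.4%.

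Of 11 G1 cyclins and kinases, 5 rose (45.5%, against 18.4% of all genes) and 0 fell. The rises numbered 1 with cyclic loess, 1 without background correction and 11 with median scaling. Ccnd2 read 7.63 and 7.81 at E17.5, 9.82 and 9.75 at E18.5, and 8.85, 9.08, 9.58 and 9.33 after birth. It was not called (0.46 ± 0.47, adjusted p = 0.404), and the difference was 1.49 against E17.5 and -0.58 against E18.5. Ccnd1 read 8.25 and 8.01, then 9.83 and 9.85, and between 9.87 and 10.49 after birth (1.16 ± 0.34), of which 0.31 was left against E18.5 alone. Both cyclins thus stood near or above their juvenile level at E18.5 already. Ccnd3 did not pass (-0.17 ± 0.11) and read -1.03 and 0.23 on other probes. Ccne1, an E cyclin that opens S phase, rose by 1.83 ± 0.18, or 0.67 and under the fold threshold with cyclic loess. Cdk2 rose by 1.25 ± 0.11, although its 3 dimmer probes gave 0.88, 0.33 and 0.06, and against E18.5 alone the difference was 0.88 and not called.

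Meiotic genes were called in both directions. Of 7 measured genes of the meiotic chromosome axis and synaptonemal complex, 4 rose (57.1%) and 1 fell (14.3%). The shares of all genes were 18.4% and 18.6%. Cyclic loess gave 3 rises and 2 falls, with a median of 0.18 against 1.03, and median scaling 6 and 0. Syce2, a central element protein, read 4.77, 5.04, 4.86 and 4.60 before birth and 8.03, 8.10, 7.83 and 7.86 after it (3.14 ± 0.22, adjusted p = 4.72e-12). Smc1b, a meiotic cohesin, rose by 1.70 ± 0.21 and Sycp1, the transverse filament protein, by 1.03 ± 0.24, close to the fold threshold. Sycp1 was not called in 7 of 26 alternative settings. Rec8, the meiotic kleisin, fell by 1.03 ± 0.24 but rose by 1.05 under median scaling. Tex11 read 5.91 and 6.78 at E17.5, 5.76 and 5.47 at E18.5, 10.86 and 10.61 at 8 dpp, and 10.47 and 10.53 at 10 dpp. Spo11, which cuts DNA to start recombination, went the other way, from 10.63, 10.50, 10.69 and 10.68 before birth to 7.26, 6.87, 7.76 and 7.77 after it (-3.21 ± 0.13, adjusted p = 2.59e-16). Neither gene's groups overlapped. Of 13 recombination genes 3 rose (23.1%) and 4 fell (30.8%), against 18.4% and 18.6% of all genes. Cyclic loess gave 1 rise and 4 falls, and median scaling 8 and 1. The other rises were those of Mei1 (1.59 ± 0.18) and Psmc3ip. The other falls were those of Msh4 (-1.74 ± 0.20), Mnd1 (-1.42 ± 0.11) and Spata22 (-1.30 ± 0.17). Under median scaling the falls of Mnd1 and Spata22 turned to 0.69 and 0.49, and that of Msh4 was -0.44 and not called. In fetal males Spo11 had climbed from 8.59 at E12.5 to 10.68 at E18.5, and it was between 7.06 and 8.75 from 8 to 20 dpp.

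Genes that belong to later stages of spermatogenesis were not higher as a group than all genes. Of 18 spermatocyte genes 4 rose (22.2%) and 5 fell (27.8%), not far from the 18.4% and 18.6% of all genes. Of 16 spermatid genes 0 rose and 1 fell (6.25%), Dkkl1 (-1.82 ± 0.24). For spermatocyte genes cyclic loess gave 2 rises and 7 falls. Median scaling gave 6 and 1 for spermatocyte and 3 and 0 for spermatid genes, with medians of 0.51 and -0.05 against 1.10 over all genes. Hspa2, a chaperone of spermatocytes, rose by 2.12 ± 0.13. Ldhc, a lactate dehydrogenase of meiotic and later germ cells, read between 10.59 and 10.97 before birth and between 6.51 and 6.83 after it (-4.17 ± 0.15), and the chaperone gene Clgn fell by 2.01 ± 0.18, or read 0.10 under median scaling.

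In retinoic acid signalling, 3 of 15 genes rose (20%) and 4 fell (26.7%), not far from the 18.4% and 18.6% of all genes. Cyclic loess gave 2 rises and 2 falls, and median scaling 6 and 1. Aldh1a1 and Aldh1a2, which both make retinoic acid, read 1.08 ± 0.27 and -1.47 ± 0.31, the second of them with -0.49 on another probe and 0.19 under median scaling. The rise of Aldh1a1 was 0.23 against E18.5 alone. The receptor gene Rxrg fell at least 1.62-fold, and Rarb (-1.14 ± 0.38) gave -0.03 and -0.37 on other probes. Among 23 receptors of signals from the testis niche, 9 rose (39.1%) and 0 fell, against 18.4% and 18.6% of all genes, with a median of 0.47. The rises numbered 2 without background correction, 6 with cyclic loess and 13 with median scaling. In the main processing they took in the Wnt receptors Fzd3 (2.17 ± 0.16) and Fzd7 (1.34 ± 0.26), the Wnt co-receptor Lrp6 (1.63 ± 0.22) and the cytokine receptor subunit Il6st (1.62 ± 0.33). Notch1 rose at least 2.07-fold and the BMP receptor Bmpr2 at least 1.9-fold. Of these named receptors, Fzd3 alone was called without background correction. Of 19 genes that respond to ERK, 1 rose (5.26%), the phosphatase gene Dusp2 (2.25 ± 0.24), and 3 fell (15.8%), both under the shares of all genes. The ligand genes Nodal and Lefty1, which are active earlier in fetal male germ cells, were not called (0.07 ± 0.18 and -0.32 ± 0.14), and neither was detected on any juvenile array.

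Of 17 glycolysis genes 9 fell (52.9%) and 2 rose (11.8%), against 18.6% and 18.4% of all genes. The median of -1.06 turned to 0.86 under median scaling, where the median of all genes was 1.10. Slc2a3, a glucose transporter, read 10.42 and 10.84 at E17.5, 11.12 and 11.10 at E18.5, and 7.48, 7.94, 7.76 and 7.54 after birth (-3.19 ± 0.25, adjusted p = 4.12e-11). Ldha, which makes lactate, read 11.07, 11.04, 11.42 and 11.43 before birth and 7.80, 8.14, 8.20 and 8.15 after it (-3.16 ± 0.14). Both remained lower by 1.14 and 1.17 under median scaling. The phosphofructokinase genes Pfkl (-2.56 ± 0.24, with 0.28 on a dim probe) and Pfkp (-2.22 ± 0.27) and the pyruvate kinase gene Pkm (-2.00 ± 0.11) fell too, but under median scaling none of these 3 was called (-0.65 for Pfkl, -0.77 for Pfkp and -0.25 for Pkm). The fall of Pfkp was -0.95 and not called against E17.5 alone. Pdk1, which keeps pyruvate out of mitochondria, rose by 2.14 ± 0.18. Of 68 genes of oxidative phosphorylation 17 rose (25%) and 1 fell (1.47%), against 18.4% and 18.6% of all genes, with a median of 0.41. The rises numbered 11 without background correction, 14 with cyclic loess and 62 with median scaling. In the main processing they were led by the complex I gene Ndufb5 (2.92 ± 0.24) and the complex II gene Sdhd (2.77 ± 0.30). The fall was that of Ndufv3 (-1.71 ± 0.13), which read 0.21 under median scaling.

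Of 16 genes of purine synthesis 6 rose (37.5%) and 1 fell (6.25%), against 18.4% and 18.6% of all genes. Among the rises were Ppat, which commits to the pathway (3.01 ± 0.20), and Prps1, which makes its sugar precursor (3.34 ± 0.31). The fall was that of Adssl1, the isozyme of muscle (-3.77 ± 0.29, with -3.44 and -0.95 on dimmer probes). Of 26 ribosome biogenesis genes 9 rose (34.6%) and 2 fell (7.69%), led by the nucleolar helicase gene Ddx21 (3.35 ± 0.17) and Noc3l (3.30 ± 0.14). Of 28 proteasome genes 9 rose (32.1%) and 1 fell (3.57%), with Psma3 at 2.31 ± 0.11 and Psmd2 at -2.27 ± 0.25. Psmd2 was at -0.34 and not called under median scaling. Psmb5, a catalytic subunit, read 8.13 and 7.73 at E17.5, 5.07 and 6.19 at E18.5, and between 8.51 and 8.86 after birth, so its rise of 1.90 ± 0.19 was 0.75 against E17.5 alone. Among 52 cytosolic ribosomal protein genes 2 rose (3.85%) and 4 fell (7.69%), with a median of -0.17. Cyclic loess gave 2 rises and 18 falls, and median scaling 30 rises and 0 falls. Many of these have near-identical copies in the genome, so single members are uncertain.

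Imprinted genes, which are expressed from one parental copy, fell for 8 of 20 (40%, against 18.6% of all genes) and rose for 1 (5%). Their median was -0.46. Under median scaling it was 0.14, against 1.10 over all genes. Besides Cdkn1c, the transporter gene Slc22a18 fell at least 6.38-fold, and Ddc (-2.61 ± 0.25), Dlk1 (-2.34 ± 0.31) and the growth regulator gene Grb10 (-1.93 ± 0.30) fell, but the last 3 were not called under median scaling, at -0.63, -0.30 and -0.095. Ascl2, a transcription factor known from placenta, rose by 1.76 ± 0.29. Of 39 histone-modifying enzymes 7 rose (17.9%) and 8 fell (20.5%), shares near the 18.4% and 18.6% of all genes. Cyclic loess gave 3 rises and 9 falls, and median scaling 29 and 1. Ezh1, a Polycomb methyltransferase, read 8.54, 8.95, 8.00 and 8.00 before birth and between 5.48 and 5.68 after it (-2.79 ± 0.19). Its relative Ezh2 fell by 2.23 ± 0.12, with 0.35 on a dim probe, and the histone demethylase gene Kdm1b by 2.23 ± 0.13, but neither was called under median scaling, at -0.16 and -0.45.

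**Figure D4:**
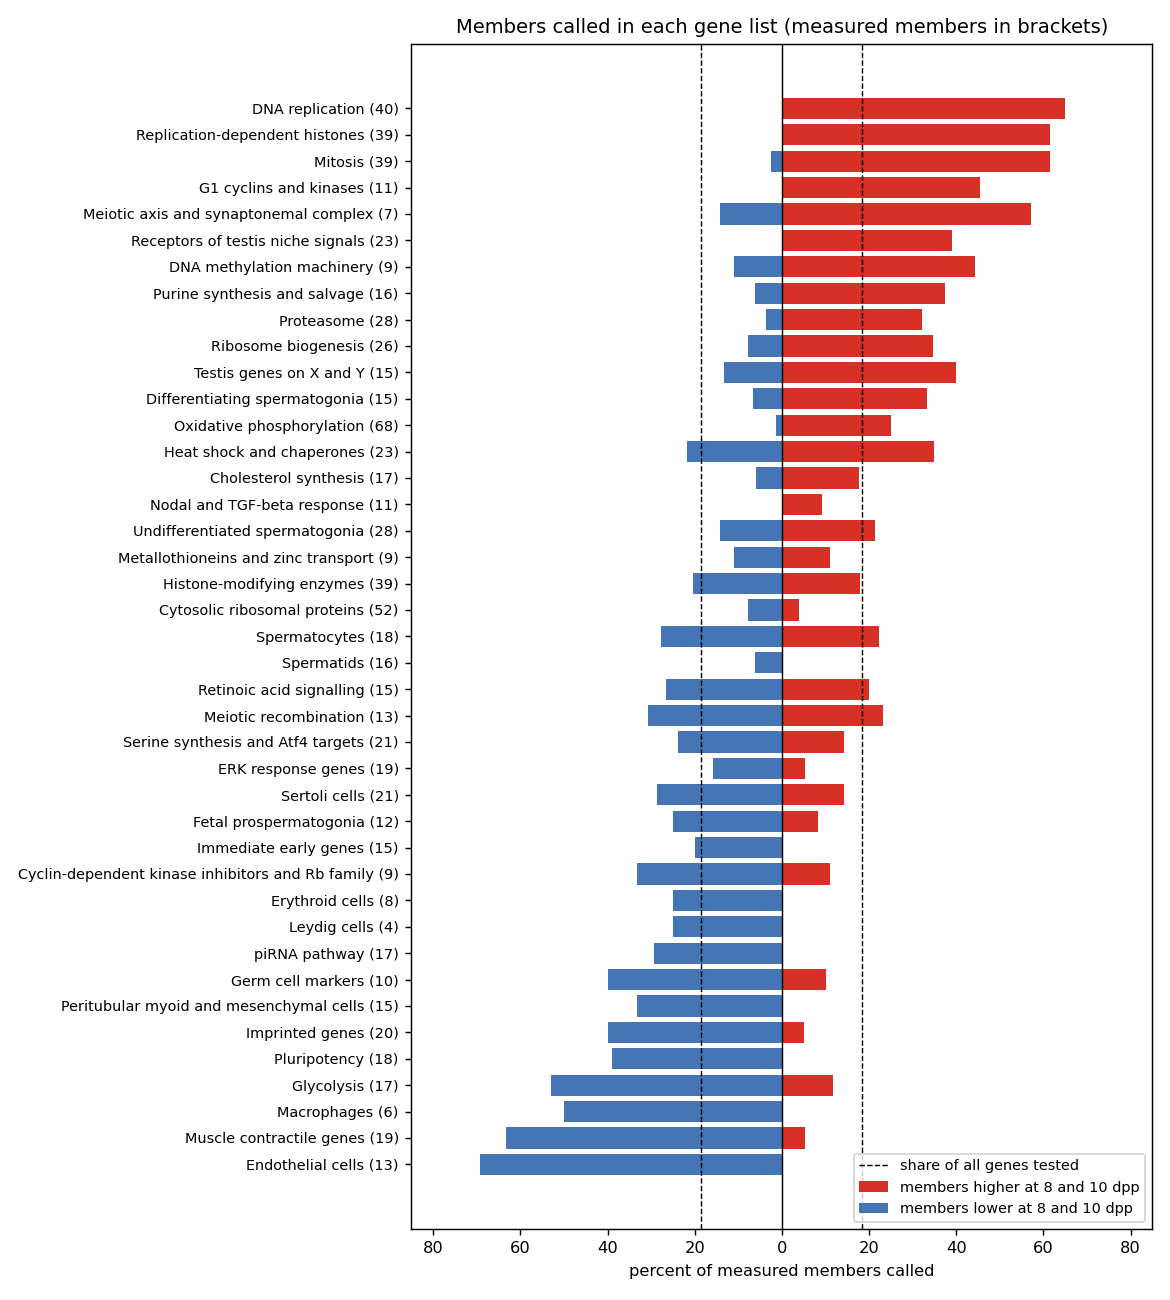
Bars give the percent of the measured members of each gene list that rose (red, to the right) or fell (blue, to the left) at 8 and 10 dpp, with the number measured in brackets and dashed lines at the shares of all 10935 genes, 18.4% for rises and 18.6% for falls. Replication, histone and mitosis lists extend farthest to the right and endothelial, muscle and glycolysis lists far to the left.

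In the main processing, markers of other cell types were called in both directions only for Sertoli cells. Of 13 endothelial markers 9 fell (69.2%, against 18.6% of all genes) and 0 rose, with a median of -1.29. Their summed normalized intensity ran from 4209 to 5537 on the fetal and from 1238 to 1551 on the juvenile arrays. Vwf read 10.25 and 10.41 at E17.5, 9.18 and 8.74 at E18.5, and between 4.70 and 4.91 after birth. Flt1, a VEGF receptor, fell by 3.60 ± 0.14, with -0.54 on a dim probe, and the adhesion gene Pecam1, also known in early germ cells, at least 5.77-fold. Of the endothelial markers, 7 were detected on no juvenile array, while 4, Plvap and Flt1 among them, were detected on all 4. Of 6 macrophage markers 3 fell (50%), and 0 of the 6 were detected on any juvenile array. The summed intensity went from between 576 and 819 to between 145 and 156. Between E16.5 and 12 dpp, however, 1 of the 6 fell and the median of the macrophage list was -0.02. Of 15 peritubular myoid and mesenchymal markers 5 fell (33.3%), with sums of 3163 to 3625 before and 995 to 1670 after birth. Of 8 erythroid markers 2 fell (25%), not far from the 18.6% of all genes, with sums of 2245 to 8305 and 391 to 629. Of 4 Leydig cell markers 1 fell (25%), Hsd17b3, at least 2.21-fold. Median scaling gave 1 rise and 5 falls for endothelial, 2 and 4 for peritubular and 1 and 1 for Leydig markers. It gave 0 rises and 2 falls each for macrophage and erythroid markers. The medians of these 5 lists then lay between -0.84 and 0.03, against 1.10 over all genes. Of 19 muscle contractile genes 12 fell (63.2%) and 1 rose (5.26%), or 9 and 3 with median scaling. The median was -1.48, or -1.14 with bounds, and the troponin gene Tnnc2 fell at least 12.8-fold. In RNA from many cells, fewer cells of a type and less RNA per cell cannot be told apart, and the part of other cell types in the falls was not tested.

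The endothelial and muscle levels also changed within fetal life. The endothelial list averaged 5.92 at E12.5, 6.21 at E14.5 and 7.29 at E18.5, and the muscle list averaged 5.55, 5.62 and 7.41. Myh8 was at 4.38 at E12.5, 7.90 at E15.5 and 10.67 at E18.5, and read 5.18, 4.86, 5.47 and 5.21 on the compared juvenile arrays. Thy1 followed with 4.73 at E12.5, 9.44 at E15.5 and 10.01 at E18.5. Among the largest falls, Myh8, Thy1, Vwf and Slc39a4 were thus genes whose level had itself risen in fetal males, and so was Dnmt3l. Vwf went from 4.80 at E12.5 to 11.18 at E15.5 and Slc39a4 from 7.01 to 9.88. Unlike the endothelial list, Vwf was lower at E18.5 than at E17.5 (-1.37, E18.5 minus E17.5).

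Of 21 Sertoli cell markers 3 rose (14.3%) and 6 fell (28.6%), not far from the 18.4% and 18.6% of all genes, and median scaling gave 6 and 2. The 2 arrays of each juvenile age differed. Tsx was detected on no array of either side, Gata4 on no fetal array and Amh, Ctsl and Krt18 on no juvenile array, and the summed intensity ran from 5489 to 7919 before and from 2731 to 14032 after birth. Their mean level was 6.88 and 6.90 at E17.5 and 7.48 and 7.49 at E18.5, and it was 6.03 on replicate 1 and 6.86 on replicate 2 at 8 dpp and 6.47 and 7.32 at 10 dpp. Cldn11, a tight junction protein of Sertoli cells, read 8.17 and 10.32 at 8 dpp and 9.63 and 11.42 at 10 dpp, against 7.24 to 8.22 on the fetal arrays, and its rise of 2.19 ± 0.37 rests on overlapping arrays. The defensin gene Defb36 read 6.68, 8.45, 8.42 and 10.06 after birth and 9.50 to 9.95 before it. Replicate 2 was thus the higher one at both juvenile ages. The same held for Stra8 (9.79 against 9.04 and 10.02 against 9.25) and Pou5f1 (9.99 against 9.24 and 9.94 against 9.48), whose differences from the fetal arrays were larger than these gaps. The part of Sertoli cells in any result was not tested.

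**Figure D5:**
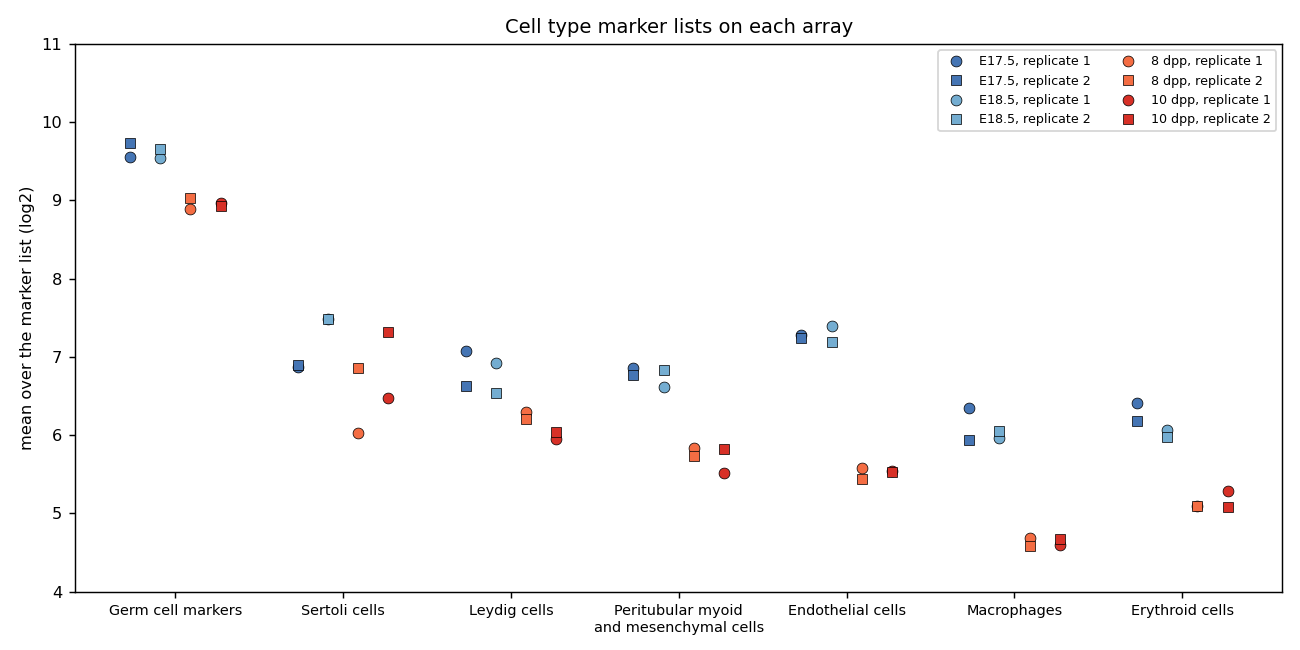
Points give the mean log2 level of each cell type marker list on each of the 8 arrays, with circles for replicate 1 and squares for replicate 2. All lists but that of Sertoli cells were lower on the 4 juvenile arrays than on the 4 fetal arrays, and the Sertoli list overlapped between the stages, with replicate 2 above replicate 1 at 8 and at 10 dpp.

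The days within each stage were compared in the same model. Between 8 and 10 dpp limma called 0 genes (0% of 10935), and 470 genes had an unadjusted p under 0.05. Between E17.5 and E18.5 it called 492 genes (4.5%), of which 267 rose (2.44%) and 225 fell (2.06%), and 255 of them were also called between the stages. The largest fetal rises were those of Pfkp (2.54), the early response gene Ier3 (2.43), Ccnd2 (2.06), the inhibin gene Inha (2.04) and the ubiquitin ligase gene Trim2 (2.00). The largest falls were those of Actn2, an alpha-actinin of muscle (-3.21), the kisspeptin gene Kiss1 (-2.64), Psmb5 (-2.30), the steroidogenic enzyme gene Cyp17a1 (-2.27) and Svs4 (-2.26). Actn2 read 10.33 and 10.24 at E17.5, 6.90 and 7.25 at E18.5 and 7.75 to 7.96 after birth, and Ier3 read 5.14 and 6.10, then 8.14 and 7.95, then 5.45 to 6.02. For Actn2 the juvenile arrays thus lay between the fetal days, and for Ier3 they lay near E17.5. With the 4 fetal arrays fitted alone, limma called 0 genes between the fetal days, and 2371 had an unadjusted p under 0.05, so these calls rest on the spread shared with the other groups. Without replicate 1 of E17.5 the count was 226, and without replicate 2 it was 767.

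The stage difference was set beside arrays that it did not use, those of males at 12 dpp and E16.5. In that comparison 4189 genes were called (38.3%), 2090 as rises and 2099 as falls. Of the 2014 rises at 8 and 10 dpp, 1636 also rose there (81.2% of the former and 78.3% of the latter), and of the 2039 falls 1691 also fell (82.9% and 80.6%). Called genes had the same sign in 4041 of 4053 cases, and 0 were called in opposite directions. The arrays shared the normalization and the fit but no samples. The gap in brightness was also there, with upper quartiles of 419.16 and 439.65 at 12 dpp and 108.65 and 101.03 at E16.5. Brightness and stage therefore cannot be told apart in this comparison either. Stra8 differed by 4.77, Tex11 by 4.86, Uhrf1 by 4.07, Dnmt3l by -7.10, Slc39a4 by -5.22 and Cdkn1c by -2.95 in that comparison. L1td1 (-0.13) and Pfkp (-0.77) were among the genes whose difference was smaller there. The macrophage marker Fcer1g, which fell at least 6.97-fold at 8 and 10 dpp, differed by 0.30 in that comparison.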

How the data were processed

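The probe intensities and their detection p-values were deposited by the authors in a table without normalization, and the authors' log2 values of the same arrays were deposited beside it. BeadStudio 3.2, RMA and lumi are named in the submitters' processing notes, with no order or role. RNA was amplified linearly to biotin-labelled cRNA, per the labels' protocols, from 300 ng where possible.

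All 44 arrays were background-corrected and quantile normalized with neqc of limma 3.58.1 in R 4.3.3, with an offset of 16. Probes detected at p under 0.01 on at least 2 arrays were kept (16086), of which 15127 had a gene symbol, and the brightest probe stood for a gene (10935 genes, 2924 with several probes). Of 25697 probes, 23978 had 1 symbol, 0 several and 1719 none, in an annotation updated by RefSeq names of GRCm38.p6. limma's test was fitted over 23 group means with 21 residual degrees of freedom, without a block for the replicate number, and Benjamini-Hochberg adjustment ran over all genes. Where a side was detected on no array, its level was bounded per array by the lowest signal detected or the probe's own, whichever was higher.

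Named genes were the 15 largest rises and falls whose arrays did not overlap, up to 6 called members of each list, a set of reference genes and the 5 largest changes each way within each pair of days. Members and lists were chosen with earlier results of these data known.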

Additional observations from a re-analysis of the deposited data

How the results depend on the processing

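The stage comparison called 4053 genes, and leaving out single arrays gave 3997 to 4149 (rises 1988 to 2069, falls 2009 to 2080). It called 1517 without background correction (697 and 820), 6588 with median scaling (5681 and 907), 2410 over genes detected on all 8 arrays (1052 falls) and 7201 with no fold threshold (3687 and 3514). Cyclic loess gave 1134 rises, 34.5% of its 3286 calls, and moved the median of all genes to -0.16. The 8 and 10 dpp comparison called 2 without background correction, 1 with an offset of 50, 56 with cyclic loess, 30 with median scaling, 1 on the authors' values, 1 with a variance trend, 12 with array weights and 0 to 8 with an array left out. The fetal days gave 54, 276, 168 and 80 under the first 4 of these settings, 157 when normalized alone, 0 when fitted alone, 1351 with no fold threshold and 226 to 767 with an array left out. The comparison of 12 dpp with E16.5 gave 1574 without background correction, 6492 with median scaling, 2501 over genes detected on every array and 3924 to 4104 with an array left out.

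Of 208 named genes that were called, 182 kept their sign and 113 passed in every setting that held them. The setting of genes detected on all 8 arrays held 135 of the 220 named genes, so the rest were not tried there. Settings that alter only the threshold or the estimate of the spread cannot turn a sign. Signs turned with cyclic loess for Etv5 (-0.26), Nodal (-0.61) and Sohlh1 (-0.52). With median scaling they turned for Actn2 (0.97), Aldh1a2 (0.19), Asns (0.006), Bag3 (0.19), Ccnd3 (1.96), Cdkn2a (1.06), Clgn (0.10), Defb36 (0.77), Dppa5a (0.51), Gstm6 (0.28), Inha (0.31), Kdm3a (0.082), Kdm6a (0.54), Mnd1 (0.69), Ndufv3 (0.21), Nodal (-0.35), Nsdhl (0.19), Phgdh (0.53), Piwil1 (0.19), Piwil2 (0.86), Polr1e (0.24), Rec8 (1.05), Rpl39 (0.80), Rpl4 (0.31), Rplp0 (0.75), Slc38a2 (0.16), Sparc (0.89), Spata22 (0.49) and Tfap2c (0.64). With single ages they turned for Ier3 (0.11 against E17.5), Actn2 (0.78), Ccnd2 (-0.58) and Cyp17a1 (0.28) against E18.5, and Sohlh1 (-0.0625 at 8 dpp). Leaving out single arrays gave, for Sohlh1, juvenile minus fetal, differences of -0.0588 to 0.0837, below 0 in 4 cases. The cause was not tested in any of these.

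Deviations of same-numbered replicates correlated at 0.33 between 8 and 10 dpp and at 0.03 to 0.13 for the other pairs of ages. Since 3 of the 6 pairs were under 0.1 and no label ties the numbers, they were not used as pairs. With a replicate block the counts were 4053 between stages, 0 at 8 to 10 dpp, 499 between fetal days and 4188 for 12 dpp against E16.5. Arrays near background limit the low genes, for which folds are bounds.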

Other observations

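Of 15 measured testis genes on the X and Y chromosomes, 6 rose (40%) and 2 fell (13.3%), against 18.4% and 18.6% of all genes. Ott (2.63 ± 0.22), Taf7l, a germ cell relative of a general transcription factor (2.39 ± 0.13), and Tex13b (2.27 ± 0.14), all on the X chromosome, rose. Tsga8, also on the X chromosome, fell by 3.57 ± 0.19, and the Y-linked Sly fell at least 10.4-fold, from between 8.17 and 9.14 on the fetal arrays to below detection on all 4 juvenile arrays. Sly and its X-linked relatives are multicopy genes, and which copy a probe read is uncertain.

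Of 23 chaperone genes 8 rose (34.8%) and 5 fell (21.7%), or 6 and 5 with cyclic loess and 15 and 1 with median scaling, with the inducible Hspa1a (2.62 ± 0.22) and Hspa4 (2.15 ± 0.36) higher on all 4 juvenile arrays and the small heat shock gene Cryab lower, at least 3.38-fold. Of 21 genes of serine synthesis and Atf4 targets 3 rose (14.3%) and 5 fell (23.8%), shares close to those of all genes, and median scaling gave 10 and 3. Ddit3, a transcription factor of the unfolded protein response, fell by 3.06 ± 0.20 and the hormone gene Fgf21 at least 3.55-fold. Psat1 rose by 1.62 ± 0.15 while Phgdh, which acts one step before it, fell by 1.57 ± 0.17, a fall that was 0.53 in the other direction under median scaling. In cholesterol synthesis 3 of 17 genes rose (17.6%) and 1 fell (5.88%), or 2 and 2 with cyclic loess and 13 and 0 with median scaling, with Lss at 2.14 ± 0.20 and Nsdhl at -1.59 ± 0.18, the second of them 0.19 under median scaling. Klf6, an immediate early gene, fell by 2.23 ± 0.26, or -0.51 and not called under median scaling. The zinc exporter gene Slc30a1 rose by 2.18 ± 0.15, and the importer gene Slc39a4 was among the largest falls.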
